A study of Saccharomyces cerevisiae with 16 samples.

Results

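The genes described here are 33 that encode subunits of the budding yeast proteasome or its transcriptional regulator Rpn4. They were chosen by name: the 14 subunits of the 20S core (PRE1 to PRE10, PUP1 to PUP3 and SCL1), 18 subunits of the cap that sits on it (RPT1 to RPT6, RPN1 to RPN3 and RPN5 to RPN13), and RPN4. SEM1 is not among them: it was listed with the associated factors and has no entry in the data. All 33 were among the 6074 genes in the table, and 31 could be tested. The data are 16 ORF microarrays of Saccharomyces cerevisiae, on each of which RNA of a mutant culture was hybridised against RNA of a paired wild-type culture in the other dye. There were 4 mutants with 4 arrays each. The set1htz1sir2 strain is mutant in SET1, the histone H3 lysine methyltransferase, in HTZ1, which encodes the histone variant H2A.Z, and in SIR2, a histone deacetylase of silent chromatin; the set1htz1 strain is mutant in SET1 and HTZ1; H3K4A carries histone H3 with alanine in place of the lysine that Set1 methylates; and set1 is mutant in SET1 alone. The sources used here give no background strain, marker or clone number for any of them. Cultures were in log phase in rich medium with adenine and tryptophan. For H3K4A the deposited description names total RNA as the labelled material, where the sample labels name polyA RNA, so comparisons of H3K4A with the other mutants may also be comparisons of RNA input.

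The proteasome degrades proteins that carry ubiquitin chains. Its core is a barrel of stacked rings, outer alpha rings that gate the entry and inner beta rings that hold the proteolytic sites, and its cap has a base, whose Rpt ATPases unfold the substrate, and a lid, which removes the ubiquitin. Rpn4 is a short-lived transcription factor that activates proteasome genes through a shared promoter element and is itself degraded by the proteasome, so that the genes are known to be induced together when proteolysis is impaired.

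Values are log2 ratios of mutant over wild type, and a gene was called when the Benjamini-Hochberg adjusted p of limma, fitted over the 5147 tested genes with a term for the dye, was under 0.05. A change given as a fitted value comes from that fit, with its standard error (SE). On arrays 1 and 3 of every mutant the mutant was labelled with Cy5, and on arrays 2 and 4 with Cy3. SET1 itself averaged -2.31 ± 0.22 in set1htz1sir2, -2.34 ± 0.45 in set1htz1, -0.14 ± 0.15 in H3K4A and -2.67 ± 0.42 in set1 (log2 ratio, SD, n = 4 each), SIR2 averaged -2.44 ± 0.28 in set1htz1sir2, and HTZ1 averaged -2.94 ± 0.26 in set1htz1 and has no value in set1htz1sir2. The arrays held 5385 to 5802 values each, and their medians lay between -0.04 and 0.03. Across all tested genes, calls were 50.4% in set1htz1sir2, 47.5% in set1htz1, 4.2% in H3K4A and 18.8% in set1, so a single call in the multiple mutants is a common event. All mutants except H3K4A carry the SET1 mutation, and the comparisons between mutants reuse the same arrays as the comparisons with wild type.

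In the set1htz1sir2 mutant the proteasome genes were mostly higher than in wild type, the core by more than the cap. Of the 31 tested members 16 rose and 1 fell, where 24.1% of all tested genes rose and 26.3% fell. Among core genes 9 of 13 rose and 1 fell, with a median fitted change of 0.50. Among cap genes 6 of 17 rose and none fell, with a median of 0.23 and a mean of 0.14. The median of all tested genes was -0.03. The absence of falls in the cap depended on the fit: with a dye term for each mutant, 8 cap genes rose and 2 fell. RPN4 (YDL020C) rose by a fitted 0.57 (SE 0.12, 1.49-fold, limma adjusted p = 0.00072). RPN4 read 0.45, 0.50, 0.58 and 0.76 on the 4 arrays, all above 0.

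**Figure D1:**
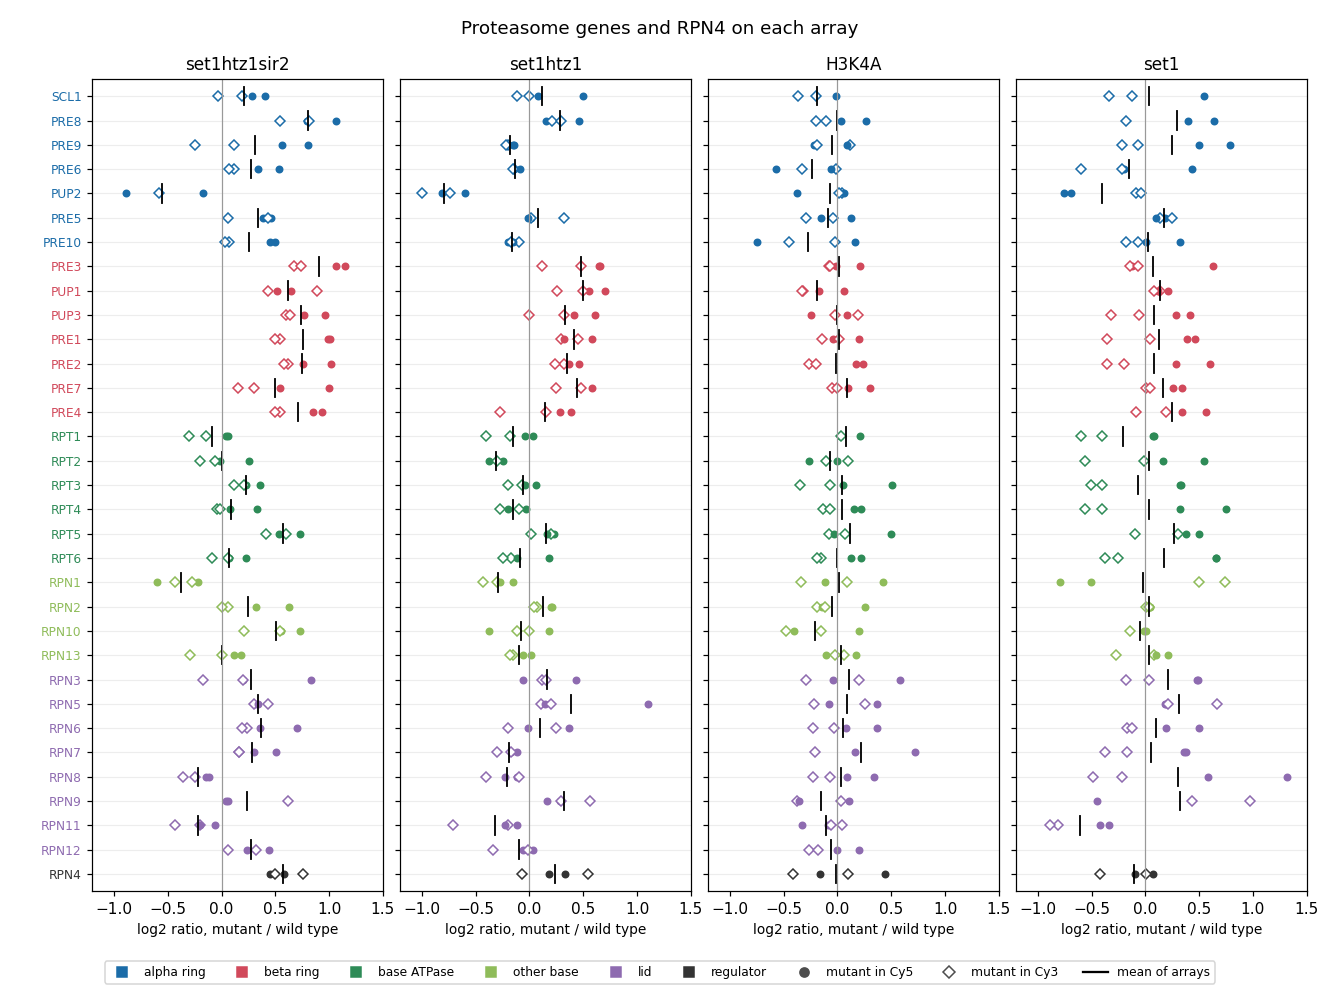
Log2 ratio of mutant over wild type (x axis) of the 33 genes (rows, coloured by subcomplex) on each of 4 arrays in set1htz1sir2, set1htz1, H3K4A and set1. Filled circles are arrays with the mutant in Cy5, open diamonds arrays with it in Cy3, and black bars are means; the beta ring genes lie right of 0 on all arrays of set1htz1sir2, and PRE4 in H3K4A and RPN12 in set1 have no values.

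The beta ring gave the most uniform result. All 6 tested beta genes rose in set1htz1sir2, with fitted changes of 0.50 to 0.91 and a median of 0.74. PRE3 (YJL001W), which encodes the caspase-like proteolytic subunit, had log2 ratios of 1.06, 0.67, 1.15 and 0.74 on the 4 arrays and a fitted change of 0.91 (SE 0.10, 1.87-fold, limma adjusted p = 8.5e-07), the highest of any member. PRE1 (YER012W), a beta subunit without a proteolytic site, had 0.99, 0.54, 1.01 and 0.50, with a fitted change of 0.76 (SE 0.10, 1.69-fold, limma adjusted p = 4e-06). Every one of these values is above 0, and for both genes the arrays with the mutant in Cy5 are the higher ones. PRE2 (YPR103W), the chymotrypsin-like subunit, had 1.02, 0.62, 0.76 and 0.58, with a fitted change of 0.74 (SE 0.09, 1.68-fold, limma adjusted p = 3.1e-06). PUP3 (YER094C), another beta subunit without a proteolytic site, rose by 0.74 (SE 0.11), PUP1 (YOR157C), the trypsin-like subunit, by 0.62 (SE 0.09) and PRE7 (YBL041W) by 0.50 (SE 0.09), with limma adjusted p of 1.3e-05, 1.9e-05 and 0.00022. PRE4 (YFR050C), the remaining beta gene, has no value in H3K4A and was left out of the common fit. Its set1htz1sir2 arrays read 0.85, 0.54, 0.93 and 0.50, and a limma fit on these arrays alone gave 0.70 (SE 0.05, adjusted p = 0.00017). That fit calls 27 of 33 members, where the common fit calls 17 of 31, so its p-values are not comparable with the others. All 3 genes of proteolytic subunits were therefore among those that rose.

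The alpha ring was mixed. PRE8 (YML092C) had log2 ratios of 0.79, 0.81, 1.06 and 0.54 in set1htz1sir2 and a fitted change of 0.80 (SE 0.10, 1.74-fold, limma adjusted p = 4.2e-06), the second largest of the 31. PRE5 (YMR314W) rose by 0.34 (SE 0.09, limma adjusted p = 0.0055). PRE9 (YGR135W), the gene of the one core subunit yeast can live without, was called at 0.31 (SE 0.13, limma adjusted p = 0.049), with array values of 0.80, -0.25, 0.56 and 0.12 that lie on both sides of 0; the call was lost in 14 of 25 alternative analyses, most widely without array 1, where the change was 0.20 and the adjusted p 0.28. SCL1 (YGL011C), PRE6 (YOL038W) and PRE10 (YOR362C) were at fitted changes of 0.21, 0.27 and 0.26 and did not pass the test. The median over the 7 alpha genes was 0.27. PUP2 (YGR253C) went the other way: its 3 measured arrays read -0.89, -0.58 and -0.17, array 4 has no value, and the fitted change was -0.52 (SE 0.15, 0.70-fold, limma adjusted p = 0.0082). That call rests on few arrays, since without array 1 or without array 2 the limma adjusted p was 0.10.

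In the cap the changes in set1htz1sir2 were smaller and fewer. Of the 6 ATPase genes of the base, RPT5 (YOR117W) rose, with 0.53, 0.60, 0.73 and 0.41 on the arrays and a fitted change of 0.57 (SE 0.10, 1.48-fold, limma adjusted p = 8.8e-05). The other ATPase genes RPT1 (YKL145W), RPT2 (YDL007W), RPT3 (YDR394W), RPT4 (YOR259C) and RPT6 (YGL048C) had fitted changes between -0.09 and 0.23 and no call. Among the other base genes, RPN10 (YHR200W), a ubiquitin receptor, rose with 0.55, 0.21, 0.73 and 0.54 and a fitted change of 0.51 (SE 0.11, 1.42-fold, limma adjusted p = 0.0011). RPN2 (YIL075C), a large scaffold subunit, was called at 0.25 (SE 0.09, limma adjusted p = 0.024), and without array 3 it stood at 0.15 with an adjusted p of 0.22, and without array 1 at 0.27 with 0.055. RPN13 (YLR421C), another ubiquitin receptor of the base, was at 0.00. RPN1 (YHR027C), the scaffold that docks ubiquitin receptors, had the second lowest fitted change of the members, -0.38 (SE 0.18, limma adjusted p = 0.08); its arrays read -0.22, -0.43, -0.60 and -0.27, all below 0. Its SE is the widest of the tested members, and its set1 arrays ran from -0.79 to 0.74. RPN1 is present in the table only as an entry with a z before its name, a mark whose meaning the sources used here do not give.

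The lid genes in set1htz1sir2 had a median fitted change of 0.28, and 3 of 7 rose. RPN6 (YDL097C), a lid scaffold subunit, rose by 0.37 (SE 0.10, limma adjusted p = 0.0048). RPN5 (YDL147W), likewise a scaffold subunit, read 0.31, 0.30, 0.34 and 0.43 and was called at 0.34 (SE 0.14, limma adjusted p = 0.046), and RPN7 (YPR108W) was called at 0.28 (SE 0.11, limma adjusted p = 0.034). The RPN5 call was lost without any 1 of the 4 set1htz1sir2 arrays (limma adjusted p 0.083 to 0.16) and the RPN7 call without array 2, 3 or 4 (0.11 to 0.12). RPN3 (YER021W) was at 0.27 and RPN9 (YDR427W) at 0.30, without a call. Both lid subunits of the deubiquitinating pair, RPN8 (YOR261C) and the deubiquitinase RPN11 (YFR004W), were at -0.22 with limma adjusted p of 0.25 and 0.084. RPN12 (YFR052W), which has no value in set1, was at 0.27 in a fit of these arrays alone (SE 0.07, limma adjusted p = 0.018). As for PRE4, that p-value is not comparable with those of the common fit, which calls fewer members.

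In the set1htz1 mutant most of the calls were in the core. Of 31 members 8 rose and 2 fell, where 21.2% of all tested genes rose and 26.3% fell. The core had 7 genes that rose and 1 that fell of 13, with a median fitted change of 0.28 and a mean of 0.14, and the cap had 1 that rose and 1 that fell of 17, with a median of -0.09 beside -0.04 for all tested genes. All 6 tested beta genes rose again, with fitted changes of 0.34 to 0.50 and a median of 0.44, whereas the alpha genes had a median of -0.13. PUP1 was highest, with array values of 0.55, 0.26, 0.70 and 0.50 and a fitted change of 0.50 (SE 0.09, 1.42-fold, limma adjusted p = 0.0002). PRE7 had 0.48, 0.58 and 0.25 on its 3 measured arrays and a fitted change of 0.49 (SE 0.11, 1.41-fold, limma adjusted p = 0.0011). PRE3 read 0.65, 0.48, 0.66 and 0.12, with a fitted change of 0.48 (SE 0.10, limma adjusted p = 0.00081). PRE1 read 0.58, 0.29, 0.32 and 0.45, with a fitted change of 0.41 (SE 0.10, limma adjusted p = 0.002). All these array values are positive. PRE2 and PUP3 rose by 0.35 and 0.34; the PUP3 call was lost without array 2 (adjusted p = 0.071) or array 3 (0.089). PRE4 was at 0.14 (SE 0.09, limma adjusted p = 0.27 in a fit of the set1htz1 arrays alone).

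Outside the beta ring, few members passed the test in set1htz1. PRE8 rose by 0.28 (SE 0.10, limma adjusted p = 0.03), a call lost without array 2, 3 or 4 (adjusted p 0.099 to 0.15). PUP2 fell by the widest margin of any member in any mutant, with -0.60, -0.74, -0.81 and -1.0 on the arrays and a fitted change of -0.79 (SE 0.13, 0.58-fold, limma adjusted p = 8.7e-05). PRE6, PRE9 and PRE10 lay between -0.22 and -0.09 on all their set1htz1 arrays, with SDs of 0.03 to 0.04 and fitted changes of -0.13, -0.18 and -0.15, none of them called. In the base no gene passed the test, and 2 of its 10 genes had a fitted change above 0. RPT2 was second lowest of the members, with -0.25, -0.38 and -0.30 on 3 measured arrays and a fitted change of -0.34 (SE 0.14, limma adjusted p = 0.053). In the lid RPN11 fell, with -0.12, -0.20, -0.23 and -0.71 and a fitted change of -0.32 (SE 0.10, limma adjusted p = 0.018); without array 4 it stood at -0.20 with an adjusted p of 0.16, and without array 3 at -0.31 with 0.06. RPN5 was called at 0.39 (SE 0.14, limma adjusted p = 0.028), but array 1 reads 1.10 and the others 0.11, 0.14 and 0.20, and without array 1 the change was 0.14 with an adjusted p of 0.38. RPN4 read 0.18, -0.07, 0.33 and 0.54, with a fitted change of 0.24 (SE 0.12, limma adjusted p = 0.11).

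Both multiple mutants had 9 called members in common: PRE1, PRE2, PRE3, PRE7, PRE8, PUP1, PUP3 and RPN5 rose in both and PUP2 fell in both, where 14.2% of all tested genes rose in both and 17% fell in both. These are 9 of 17 calls in set1htz1sir2 and 9 of 10 in set1htz1, with the strains sharing the SET1 and HTZ1 mutations. The tested genes called in no mutant were SCL1, PRE6, PRE10, RPT1, RPT2, RPT3, RPT4, RPT6, RPN1, RPN3, RPN8, RPN9 and RPN13, that is 3 core and 10 cap genes, or 13 of 31, where 30.7% of all tested genes were called in none.

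The contrast of core and cap held array by array in these mutants. The median of the core genes minus that of the cap genes was 0.45, 0.23, 0.42 and 0.51 on the set1htz1sir2 arrays (0.40 ± 0.12, SD, n = 4) and 0.26, 0.33, 0.39 and 0.21 on the set1htz1 arrays (0.30 ± 0.08), above 0 on 4 of 4 arrays in each. In H3K4A it was -0.40, 0.17, 0.11 and -0.17 (-0.07 ± 0.26), on both sides of 0. In set1 it was 0.05, 0.01, 0.16 and 0.18 (0.10 ± 0.08), positive but small. Within the core, the beta median exceeded the alpha median by 0.47 ± 0.06 in set1htz1sir2 and 0.54 ± 0.15 in set1htz1, against 0.08 ± 0.10 in H3K4A and 0.07 ± 0.09 in set1. The alpha median alone was above 0 on all 4 arrays of set1htz1sir2 (0.06 to 0.50) and below 0 on all 4 of set1htz1 (-0.15 to -0.09). It averaged 0.28 in set1htz1sir2, beside 0.14 for the cap median, and -0.12 in set1htz1, beside -0.08 for the cap. In set1htz1 the alpha ring was thus not above the cap. These medians are given as descriptions without a test.

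**Figure D2:**
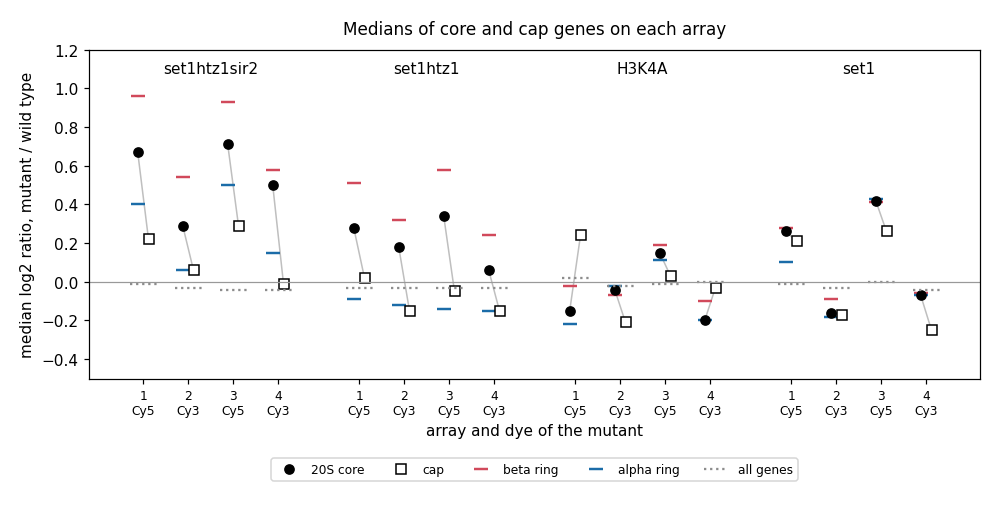
Median log2 ratio of mutant over wild type (y axis) of core genes (black circles), cap genes (open squares), beta ring and alpha ring genes (red and blue bars) and all genes (dotted) on each array (x axis, with the dye of the mutant). The core lies above the cap on all 4 arrays of set1htz1sir2 and of set1htz1, while the order varies in H3K4A; on set1 arrays core and cap are both above 0 with the mutant in Cy5 and both below 0 with it in Cy3.

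In H3K4A no member passed the limma test, where 3.59% of all tested genes rose and 0.602% fell. At an unadjusted p under 0.05 there was 1 member, PRE10, and 825 of all tested genes. The median fitted change was -0.05 for the core and 0.03 for the cap, and the 95% intervals of the 31 members together ran from -0.52 to 0.42, so the fitted changes of PRE3 in set1htz1sir2 (0.91) and of PUP2 in set1htz1 (-0.79) lie outside all of them. The highest fitted changes were those of the lid genes RPN7 (0.72, -0.21 and 0.16 on arrays 1 to 3, fitted 0.16) and RPN3 (0.58, -0.29, -0.04 and 0.20, fitted 0.11), the ATPase gene RPT5 (0.50, -0.08, -0.03 and 0.07, fitted 0.12) and the beta gene PRE7 (0.10, -0.05, 0.30 and -0.00, fitted 0.09). For RPN7, RPN3 and RPT5 array 1 is the highest of the arrays. The lowest were the alpha genes PRE10 (-0.75, -0.02, 0.16 and -0.45, fitted -0.27, SE 0.12) and PRE6 (-0.57, -0.01, -0.06 and -0.33, fitted -0.24, SE 0.12), where array 1 is the lowest. On that array the lid median was 0.36 and the core median -0.15, so the members stood further apart there than on the other H3K4A arrays. RPN4 read 0.44, -0.41, -0.16 and 0.10, with a fitted change of -0.01 (SE 0.12).

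In set1 2 of 31 members were called, both lower than in wild type, where 9.05% of all tested genes rose and 9.79% fell. RPN11 read -0.42, -0.81, -0.34 and -0.89, with a fitted change of -0.61 (SE 0.10, 0.65-fold, limma adjusted p = 0.00047), and remained called in all 25 alternative analyses. Its neighbours on the chromosome, YPI1 and SAD1, were at -0.24 and -0.16 without a call. PUP2 read -0.76, -0.09, -0.69 and -0.04, with a fitted change of -0.40 (SE 0.13, limma adjusted p = 0.04); the arrays with the mutant in Cy5 are the low ones, and without array 1 or array 3 the adjusted p was 0.22 or 0.16, and without H3K4A array 4 it was 0.051. The highest fitted changes, none called, were those of RPN5 (0.18, 0.67, 0.19 and 0.21, fitted 0.31), RPN8 (1.32, -0.22, 0.58 and -0.49, fitted 0.30), RPT5 (0.38, -0.10, 0.50 and 0.30, fitted 0.27) and RPN9 (-0.45, 0.97 and 0.43 on arrays 1, 2 and 4, fitted 0.25). RPN4 read 0.07, 0.01, -0.10 and -0.42, with a fitted change of -0.11 (SE 0.12, limma adjusted p = 0.59). The core median was 0.09 and the cap median 0.03.

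The dye orientation moved the members most in set1. The mean of the core medians there was 0.34 on the arrays with the mutant in Cy5 and -0.12 on those with it in Cy3, and for the cap 0.23 and -0.21. RPT4 is an example, at 0.32 and 0.75 in Cy5 and -0.40 and -0.56 in Cy3, as is RPN1 in the other sense, at -0.51 and -0.79 in Cy5 and 0.74 and 0.50 in Cy3. With 1 dye term shared by all mutants, 13 of 31 members had a limma-called dye effect, all higher with the mutant in Cy5, where 11.5% of all tested genes were called higher and 8.14% lower (19.6% in all). With a dye term for each mutant, the members called for it were 1 in set1htz1sir2, 0 in set1htz1, 0 in H3K4A and 16 in set1, where 2.68%, 1.48%, 0.136% and 35.4% of all tested genes were called in the same mutants. Of the 16 in set1, 13 were higher in Cy5 and 3 lower, where 18.8% of all tested genes were higher and 16.6% lower. In set1htz1sir2 the beta median was 0.95 in Cy5 and 0.56 in Cy3, positive in both orientations. Both orientations are represented by 2 arrays in every mutant, so the dye effect is balanced in each mean where no array is missing.

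**Figure D3:**
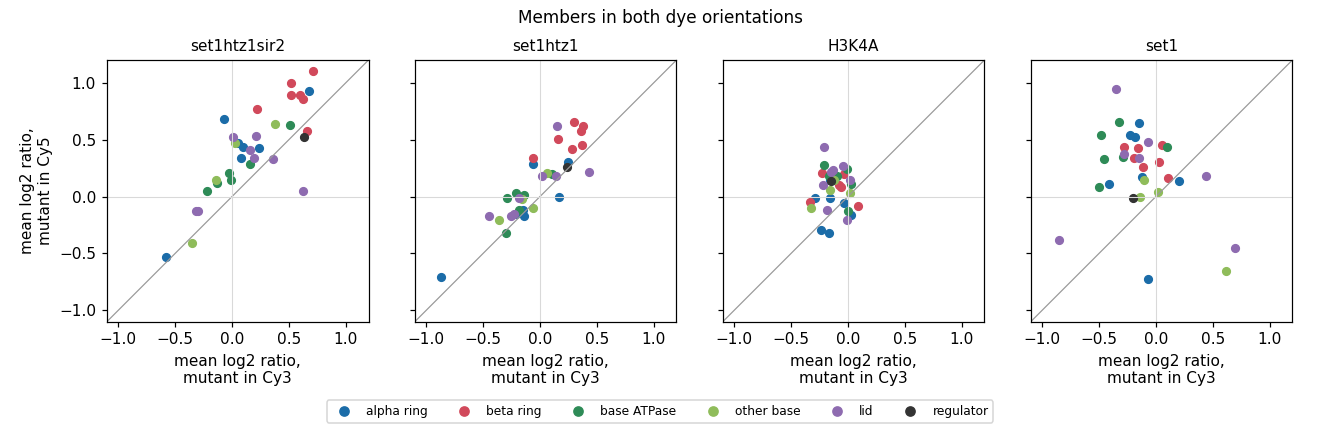
Mean log2 ratio of each member over the 2 arrays with the mutant in Cy5 (y axis) against that over the 2 arrays with it in Cy3 (x axis), in 4 mutants, coloured by subcomplex; the diagonal marks equal values. Beta ring genes sit in the upper right in set1htz1sir2 and, except PRE4, in set1htz1, while most set1 members lie in the upper left, above 0 in Cy5 and below 0 in Cy3.

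The mutants were also compared directly. Between set1htz1sir2 and set1, 8 of 31 members were higher in set1htz1sir2 and none lower, where 14.6% of all tested genes were higher and 14.1% lower (28.7% in all). They were the beta genes PRE3 (difference 0.83, 95% interval 0.53 to 1.13), PRE2 (0.67, 0.39 to 0.94), PUP3 (0.67, 0.35 to 0.98), PRE1 (0.63, 0.34 to 0.92) and PUP1 (0.48, 0.21 to 0.76), the alpha gene PRE8 (0.56, 0.24 to 0.89), the ubiquitin receptor gene RPN10 (0.58, 0.22 to 0.94) and RPN4 (0.68, 0.32 to 1.04), with limma adjusted p from 0.00033 to 0.018. RPN4 lay at 0.45 to 0.76 in set1htz1sir2 and at -0.42 to 0.07 in set1, without overlap. The RPN10 call was lost without set1 array 4 (limma adjusted p = 0.055) or set1htz1sir2 array 3 (0.062). The PRE8 call was lost without set1 array 2 (0.098) or without a dye term (0.057). With quantile normalisation the calls of RPN4 (limma adjusted p = 0.052), PUP1 (0.084), RPN10 (0.12) and PRE8 (0.13) were lost. The median difference was 0.41 over the core and 0.06 over the cap, beside -0.02 over all tested genes. PRE4, fitted separately, differed by 0.46 (SE 0.12, limma adjusted p = 0.013).

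Between set1htz1sir2 and set1htz1, strains that differ by the SIR2 mutation, 3 members were higher and none lower, where 7.27% of all tested genes were higher and 5.4% lower (12.7% in all). They were RPN10 (difference 0.59, 95% interval 0.25 to 0.92, limma adjusted p = 0.022), PRE8 (0.52, 0.22 to 0.82, 0.022) and RPN7 (0.47, 0.16 to 0.79, 0.046). RPN10 read 0.55, 0.21, 0.73 and 0.54 in set1htz1sir2 and -0.38, 0.00, 0.18 and -0.12 in set1htz1, without overlap. All 13 core genes had a difference above 0 (0.01 to 0.52, median 0.40), as had 13 of 17 cap genes (median 0.12). Of all 5147 tested genes 2714 had a difference above 0, and their median was 0.02. At an unadjusted limma p under 0.05 there were 8 core and 3 cap genes, and 1390 of all tested genes. The RPN10 call was lost in 5, the PRE8 call in 6 and the RPN7 call in 12 of 24 alternative analyses, with limma adjusted p up to 0.16, 0.20 and 0.21. Leaving out single arrays gave counts of 0 to 9 members: 0 without set1htz1 array 1 or set1htz1sir2 array 3, 1 without set1htz1 array 3 or set1htz1sir2 array 1 or 4, 5 and 6 without set1 array 2 and 3, and 9 without H3K4A array 1. PRE4 and RPN12, fitted on the arrays of these 2 mutants alone, were higher by 0.57 (SE 0.11, limma adjusted p = 0.0033) and 0.36 (SE 0.11, 0.036). That fit calls more members than the common fit, so these p-values are not comparable with those above. The RPN4 difference was 0.33, and its 95% interval included 0.

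**Figure D4:**
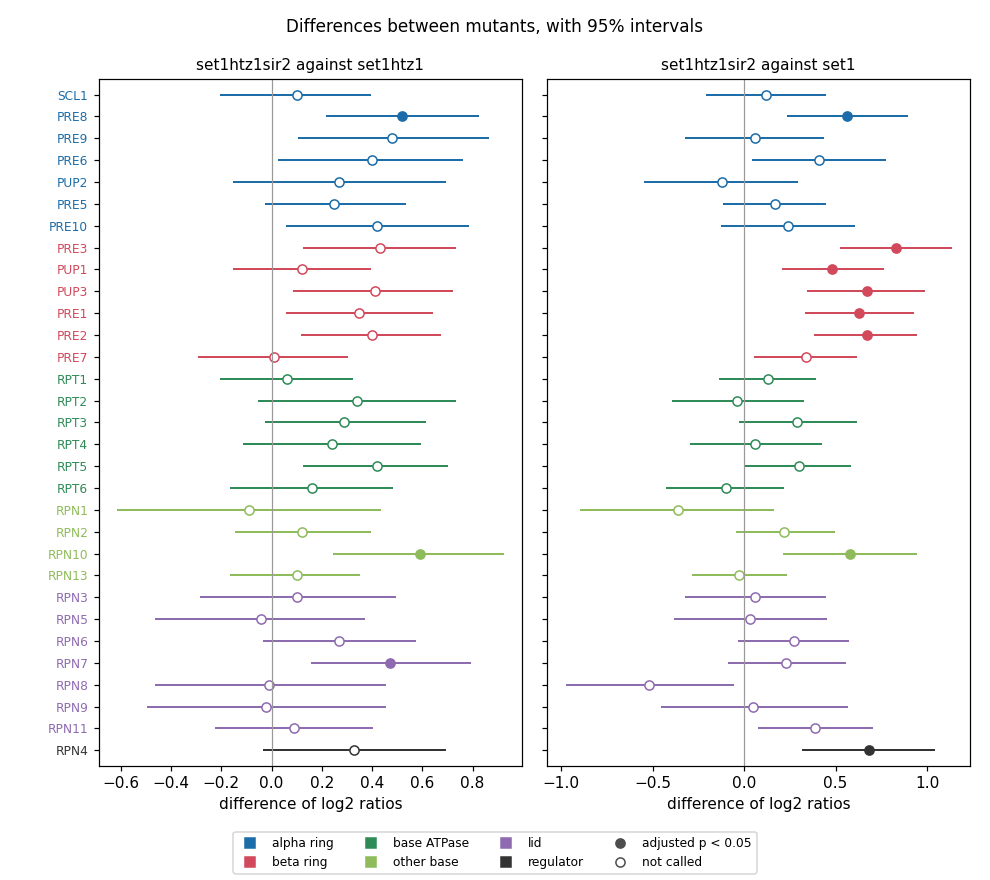
Differences of log2 ratios (x axis) between set1htz1sir2 and set1htz1 (left) and between set1htz1sir2 and set1 (right) for the 31 tested members (rows, coloured by subcomplex), with 95% intervals from limma; filled points have an adjusted p under 0.05. Against set1, 5 of 6 beta genes and RPN4 are filled; against set1htz1, the core points all lie above 0 and 1 of them is filled.

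Between set1htz1 and set1, which differ by the HTZ1 mutation, no member passed the limma test, where 9.03% of all tested genes were higher and 10.3% lower (19.3% in all). At an unadjusted p under 0.05 there were 6 members (PRE3, PRE7, PRE9, PUP1, PUP2 and RPN8), and 1678 of all 5147 tested genes. The 95% intervals of the members ran from -0.96 to 0.72, and the medians of the core and cap were 0.04 and -0.04. PRE3 was called in set1htz1 and not in set1, but the difference between these mutants, 0.40, did not itself pass the test. Between H3K4A and set1, 1 member was higher, RPN11, by 0.50 (95% interval 0.20 to 0.81, limma adjusted p = 0.044), where 4.1% of all tested genes were higher and 3.4% lower (7.5% in all); that call was lost in 15 of 25 alternative analyses (adjusted p up to 0.16).

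Of 13 listed assembly and associated factors of the proteasome 10 were tested, and in set1htz1sir2 3 rose and 2 fell, counts near the 24.1% and 26.3% of all tested genes. UMP1, the maturation factor enclosed in the nascent core, read 1.26, 1.25, 1.45 and 1.40 in set1htz1sir2 and 0.63, 0.15, 0.10 and 0.92 in set1htz1. Its fitted changes were 1.34 (SE 0.16, 2.53-fold, limma adjusted p = 2e-06) and 0.45 (SE 0.16, adjusted p = 0.025), and the mutants differed by 0.89 (adjusted p = 0.014). The set1htz1 call was lost without array 1 (adjusted p = 0.15) or array 4 (0.17), and the difference between the mutants without set1htz1 array 2 (0.056) or 3 (0.059) or set1htz1sir2 array 3 (0.054). With quantile normalisation that difference was 0.65 and also lost its call (limma adjusted p = 0.13). NAS6, a chaperone of the base, rose by 0.88 in set1htz1sir2 and 0.43 in set1htz1. POC4, whose product pairs with Irc25 as a chaperone of the alpha ring, is listed at 0.81 on all 4 set1htz1sir2 arrays; 2 of the 5242 entries with 4 values in that mutant are listed at 1 value throughout, so its SD is 0 there, and the SE of its called change (0.81, SE 0.09, limma adjusted p = 2e-06) comes from the other mutants' arrays and from limma's pooling over genes. HSM3 and RPN14, further chaperones of the base, fell in both, by 0.48 and 0.46 in set1htz1sir2 and by 0.49 and 0.39 in set1htz1. In set1htz1 IRC25 and ADD66, chaperones of the alpha ring, fell as well, by 0.54 and 0.42, which made 2 that rose and 4 that fell of 10, where 21.2% and 26.3% of all tested genes did. In H3K4A and in set1 none of the 10 was called.

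**Figure D5:**
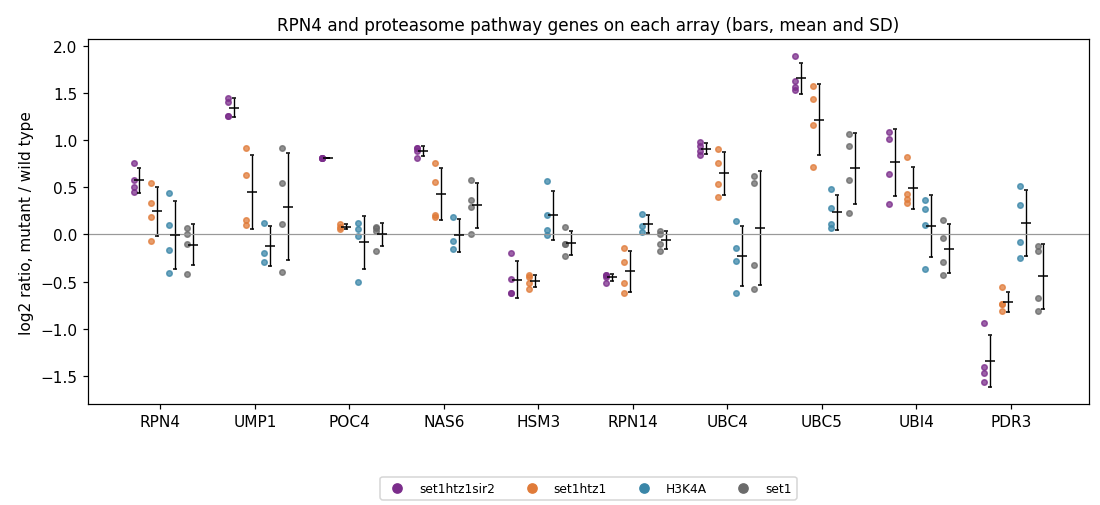
Log2 ratio of mutant over wild type (y axis) of RPN4 and 9 genes of proteasome assembly, ubiquitination and RPN4 regulation (x axis) on each array of set1htz1sir2, set1htz1, H3K4A and set1; points are arrays, and bars show mean and SD. UMP1, NAS6, UBC4, UBC5 and UBI4 are above 0 and HSM3, RPN14 and PDR3 below 0 on all arrays of both set1htz1sir2 and set1htz1.

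Among 20 listed genes of ubiquitin and substrate delivery 17 were tested, of which 5 rose and 1 fell in set1htz1sir2, 6 rose and 2 fell in set1htz1, and 2 rose in set1. The shares of all tested genes that rose and fell were 24.1% and 26.3% in set1htz1sir2, 21.2% and 26.3% in set1htz1 and 9.05% and 9.79% in set1. Whether the counts of the list differ from these shares was not tested. UBC5, a ubiquitin-conjugating enzyme of abnormal and short-lived proteins, read 1.53, 1.89, 1.63 and 1.56 in set1htz1sir2, 1.16, 1.43, 1.57 and 0.71 in set1htz1, 0.11, 0.28, 0.48 and 0.07 in H3K4A and 0.23, 1.06, 0.58 and 0.94 in set1. Its fitted changes were 1.65 (3.14-fold), 1.22 (2.33-fold), 0.23 and 0.70 (1.63-fold), with limma adjusted p of 1.6e-08, 1.2e-06, 0.43 and 0.0014. UBC4, its near-identical paralogue, rose by 0.91 in set1htz1sir2 and 0.65 in set1htz1 and was at 0.07 in set1; whether the ORF probes tell the 2 genes apart is not stated. The polyubiquitin gene UBI4, which shares its ubiquitin repeat with other genes, rose by 0.76 in set1htz1sir2 and 0.49 in set1htz1, and the shuttle factor gene DSK2 by 0.68 and 0.40. Like RPN1, UBI4 is present only as an entry with a z before its name. In set1htz1 the UBI4 call was lost without array 1 (limma adjusted p = 0.065) and the DSK2 call without array 4 (0.056). CDC48, the unfolding ATPase upstream of the proteasome, rose by 0.47 and 0.42, and UBA1, the ubiquitin-activating enzyme, by 0.27 in set1htz1, a call lost without any 1 of the set1htz1 arrays (limma adjusted p 0.068 to 0.30). Those that fell were SHP1, a Cdc48 cofactor, at -0.32 in set1htz1sir2 and -0.47 in set1htz1, and UBC1, another conjugating enzyme, at -0.62 in set1htz1. UBP6, the deubiquitinase bound to the base, rose by 0.33 in set1 (limma adjusted p = 0.011, and 0.065 without array 3). In H3K4A none of the 17 was called.

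Of 4 transcription factors known to act on RPN4, PDR3, a regulator of drug resistance genes, was the one with wide changes. It read -1.47, -0.94, -1.56 and -1.40 in set1htz1sir2 (fitted -1.34, SE 0.13, 0.39-fold, limma adjusted p = 1e-07), -0.81, -0.56, -0.74 and -0.74 in set1htz1 (-0.71, adjusted p = 0.00017), 0.31, -0.08, -0.25 and 0.51 in H3K4A (0.12, 0.71) and -0.18, -0.12, -0.81 and -0.67 in set1 (-0.45, 0.02). The set1 call was lost without array 3 (adjusted p = 0.11) or array 4 (0.15). HSF1, the heat shock factor, was called at -0.24 in set1htz1sir2 (limma adjusted p = 0.047), a call lost without any 1 of the 4 set1htz1sir2 arrays (0.094 to 0.13). PDR1 and YAP1 passed the test in none of the mutants.

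The genes next to the members on the chromosomes were counted in the same way. Of 64 adjacent genes 56 were tested, and in set1htz1sir2 11 rose and 17 fell, where 24.1% of all tested genes rose and 26.3% fell. Their median fitted change was -0.06. Of the 31 members 16 rose and 1 fell, with a median of 0.28. In set1htz1 10 adjacent genes rose and 15 fell, where 21.2% and 26.3% of all tested genes did. PUP2, which fell, adjoins GCN5, at -0.29 in set1htz1sir2 (limma adjusted p = 0.04) and -0.45 in set1htz1 (0.011), and ENO1, at 0.12 and 0.07 without a call. No member's coding region overlaps that of a neighbour in the reference annotation.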

How the data were processed

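Each array compared a mutant with wild type in Cy3 and Cy5, with the dyes swapped between 4 replicates that the deposited description calls independent and biological. The deposited values are log2 ratios of mutant over wild type; base 2 was read from the values, whose lowest, -6.64 and -5.64, are the log2 of 0.01 and 0.02. Per the file headers of the deposited description, RNA was taken at an OD600 of 0.7 by hot phenol, spots were quantified with GenePix 3.0, those of low signal or a regression R2 below 0.75 were removed, and ratios were normalised to total signal; no source used here states the probe sequences or a genome build. No spot intensities were used here, so signal over background is unknown.

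The ratios were used as deposited. Entries with a z prefix (296 of 6282) were joined to the gene of that name. limma 3.58.1 in R 4.3.3 was fitted to all 16 arrays with 4 mutant means and 1 dye term, for genes with at least 3 values in each mutant, with Benjamini-Hochberg adjustment over 5147 genes; the script was tested on simulated data. PRE4 and RPN12 were fitted on the compared arrays only. Alternatives were other dye terms, centring, quantile normalisation, other missing-value limits, only the arrays compared, no z entries, a replicate block and each array left out. Every member is described; array values in full are given for RPN4 and, per mutant, the 4 highest and 2 lowest members, and for others named for their calls after their values were seen. List genes are named when called. The members and lists were chosen with earlier results of these data known. Gene order came from RefSeq's R64 annotation.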

Additional observations from a re-analysis of the deposited data

Results flagged for a closer look

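Of 253 sets of 4 array values examined over the members and listed pathway genes, 13 had 1 array that lay apart from the other 3 by Dixon's test; chance gives about 1 in 20. Among the members these were the RPN5 array at 1.10 and the PRE5 array at 0.32 in set1htz1, the PRE6 array at -0.09 in set1htz1, the PUP2 array at -0.38 and the RPN2 array at 0.26 in H3K4A, and the PRE3 array at 0.63 and the RPN5 array at 0.67 in set1. Among pathway genes they were UBA1 at -0.04, UFD4 at 0.11 and YAP1 at 0.54 in set1htz1, and POC4 at -0.18, UBP6 at 0.58 and PDR1 at 0.12 in set1.

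Differences between mutants that passed the limma test numbered 32 over members and pathway genes. Between set1htz1sir2 and set1htz1 they were PRE8 (0.52), RPN10 (0.59), RPN7 (0.47), UMP1 (0.89), POC4 (0.72), UBC1 (0.73) and PDR3 (-0.63); the PDR3 call was lost in 8 of 25 alternative analyses, with limma adjusted p up to 0.36 and a value of -0.39 with quantile normalisation. Between set1htz1sir2 and set1 the members were PRE8 (0.56), PRE3 (0.83), PUP1 (0.48), PUP3 (0.67), PRE1 (0.63), PRE2 (0.67), RPN10 (0.58) and RPN4 (0.68). The pathway genes in that comparison were UMP1 (1.05), POC4 (0.81), NAS6 (0.57), HSM3 (-0.39), RPN14 (-0.40), UBI4 (0.92), UBC4 (0.84), UBC5 (0.95), DSK2 (0.66), SHP1 (-0.43) and PDR3 (-0.90). Of these HSM3 was lost in 7 of 25 and RPN14 in 4 of 24 alternative analyses, with limma adjusted p up to 0.12 and 0.072. With quantile normalisation the calls of NAS6 (limma adjusted p = 0.092), UBC5 (0.075), PDR3 (0.066) and DSK2 (0.053) were lost as well. Between set1htz1 and set1 they were HSM3 (-0.41), UBI4 (0.64), UBC1 (-0.45), UBC4 (0.58) and SHP1 (-0.58), and between H3K4A and set1 RPN11 (0.50). For set1htz1 against set1 the UBC4 call was lost in 15, HSM3 in 13 and UBC1 in 7 of 25 alternative analyses and UBI4 in 4 of 24, with limma adjusted p up to 0.18, 0.12, 0.14 and 0.094. With the replicate block the adjusted p was 0.07 for UBC4, 0.055 for HSM3 and 0.052 for UBC1.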

How the results depend on the processing

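Of the 41 calls of members over 8 comparisons, 22 held in every alternative run and 19 were lost in at least 1; no call changed sign. The calls of all 6 tested beta genes and of RPN4 in set1htz1sir2 held throughout. In set1htz1sir2 the called members became 27 with only the arrays compared. The called cap genes, 6 that rose in the common fit, became 10 with a dye term per mutant (8 rose and 2 fell). They became 3 with quantile normalisation and 12 with only the arrays compared (9 rose and 3 fell). In set1htz1 the called core genes became 5 among genes with all 16 values, which tests fewer genes, the cap genes became 4 with a dye term per mutant and 0 with quantile normalisation, and the core mean was 0.14 where its median was 0.28. In set1 the called members became 1 without a dye term, with quantile normalisation and among genes with all 16 values. The 3 members called between set1htz1sir2 and set1htz1 became 1 without a dye term, 7 with a dye term per mutant, 5 with centred arrays, 0 with quantile normalisation and 14 with only the arrays compared, where set1htz1sir2 against set1 gave 10. Between set1htz1sir2 and set1, quantile normalisation gave 4, and between set1htz1 and set1 a dye term per mutant gave 3. The 1 member called between H3K4A and set1 became 0 without a dye term, with only the arrays compared and with the replicate block. The cause was not tested in any of these. With the replicate number as a block in place of the dye, the counts were 16 in set1htz1sir2, 10 in set1htz1, 0 in H3K4A, 2 in set1, 2 between set1htz1sir2 and set1htz1, 8 between set1htz1sir2 and set1 and 0 between set1htz1 and set1; same-numbered arrays, with the dye effect removed, correlated at -0.524 to 0.293 over genes, so the numbers were not taken to pair samples.

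With 1 array left out, called members ranged over 13 to 19 in set1htz1sir2 (core 8 to 12, cap 3 to 7), 7 to 11 in set1htz1 (core 6 to 8, cap 1 to 3), 0 to 0 in H3K4A and 1 to 4 in set1. Between mutants they ranged over 0 to 9 for set1htz1sir2 against set1htz1, 7 to 11 for set1htz1sir2 against set1, 0 to 2 for set1htz1 against set1 and 0 to 1 for H3K4A against set1. The cap count in set1htz1sir2 was 3 without its array 3, and that in set1htz1 was 1 without its array 1, 3 or 4. The set1 count was 4 without set1 array 2 and 1 without set1 array 3, H3K4A array 4 or set1htz1 array 3. The count between set1htz1sir2 and set1htz1 was 0 without set1htz1 array 1 or set1htz1sir2 array 3, 1 without set1htz1 array 3 or set1htz1sir2 array 1 or 4, 5 without set1 array 2, 6 without set1 array 3 and 9 without H3K4A array 1.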
